A study of Mus musculus with 37 samples.

Results

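Left ventricular transcripts of mice given adrenaline without cardiac arrest were compared, 0.5 days after the injection, with those of mice that had only been anaesthetised. The comparison used 9 of the 37 libraries of the series, chosen by their labels as 4 Adr libraries of 0.5 days and 5 Naïve libraries. Of 56748 genes in the deposited table, 13410 reached 0.5 FPKM (fragments per kilobase of gene, scaled to the size of the library) in at least 4 of these 9 libraries and were tested. All mice were C57BL/6J of 8 to 10 weeks, of both sexes, and all were anaesthetised with isoflurane. Adr mice were intubated, ventilated and injected with saline through the chest wall into the left ventricle, and 8 min later with adrenaline at 15 µg/mL by the same route. Naïve mice were neither intubated nor injected, and their hearts were taken without a recovery period. The sample labels call the Adr group a sham and the Naïve group untreated. Adrenaline, the 2 injections, ventilation and the time since the procedure therefore cannot be told apart in this comparison. Each library is 1 mouse, so the p-values measure the spread between these 9 animals. The apex, where the needle passed, was discarded before RNA was isolated from ventricular tissue.

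Adrenaline acts on the heart through alpha and beta adrenergic receptors. Beta receptors raise cyclic AMP and thereby calcium cycling and contraction, at the price of a higher oxygen demand, and the heart meets this demand almost wholly by oxidative phosphorylation. In this pathway complexes I to IV of the mitochondrial inner membrane pass electrons to oxygen, and complex V, the ATP synthase, uses the resulting proton gradient. Handling, anaesthesia and catecholamines are also known to release glucocorticoids, which act on the heart through the receptor encoded by Nr3c1.

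The 9 libraries held 13.2 to 18.5 M fragments counted on genes. Ventricular markers were high in each, with Myl2, the ventricular myosin light chain, at 2542 to 4697 FPKM. The atrial light chain Myl7 ran from 2.58 to 25.4 FPKM, with its highest value in Adr replicate 3. The neutrophil genes Ly6g and Mpo and the liver gene Alb were listed at 0 in all 9 libraries. By Xist and Ddx3y, the Naïve group held 3 females and 2 males and the Adr group 2 of each. Naïve replicate 4 stood apart in its number of detected genes, given below. Because the tissue was sequenced in bulk, fewer cells of a type and less RNA per cell cannot be told apart in any value given here.

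Adr hearts differed from Naïve hearts in 26 genes by the moderated test of limma at an adjusted p of 0.05. Of these, 20 were higher and 6 were lower in Adr. The higher genes made up 0.149% and the lower genes 0.0447% of the genes tested. After quantile normalization 6 were higher and 6 lower, 11 of them among the 26. At an unadjusted p of 0.05, 1161 genes were higher and 870 lower. Over all genes tested, 7192 had a positive log2 fold change (53.6%) and 6218 a negative one, the share to set beside the counts of list members below. Every Adr library lay above every Naïve library in 449 genes, 3.35% of those tested, and below every Naïve library in 486 genes, 3.62%. Of the 20 higher genes, 5 were nuclear subunits of the respiratory chain and 7 were short or antisense transcripts with few fragments. At the edge of the threshold, Fstl3 was inside it (adjusted p = 0.0472) and the complex I gene Ndufa11 outside it (adjusted p = 0.0551). The count rested on each of the 9 mice. It ran from 2 without Naïve replicate 1 to 13 without Naïve replicate 3, and it was 3 without Adr replicate 3, 4 without Naïve replicate 2 or Adr replicate 1, 7 without Adr replicate 2 or 4, 11 without Naïve replicate 4 and 12 without Naïve replicate 5.

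**Figure D1:**
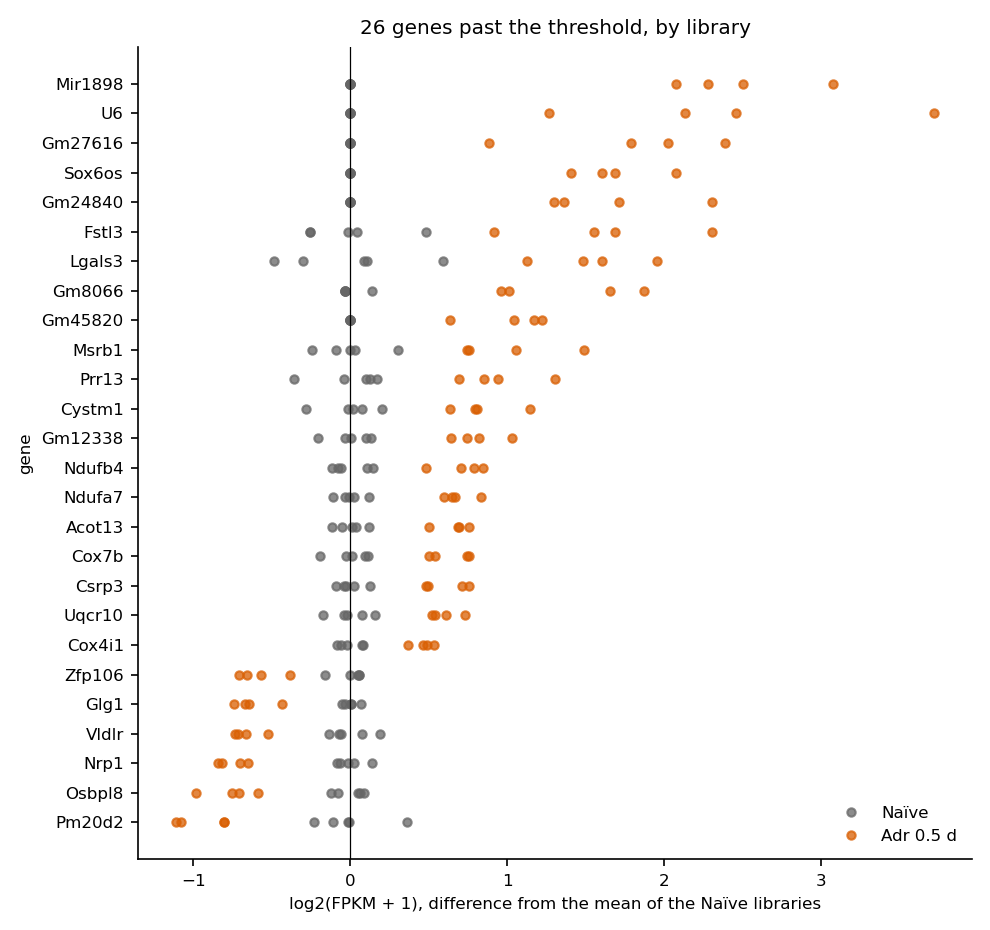
Difference of each library from the mean of the Naïve libraries, on the log2(FPKM + 1) scale (horizontal axis), for the 26 genes past the threshold (vertical axis). Grey points are the 5 Naïve libraries and orange points the 4 Adr libraries of 0.5 days. In each of these genes the orange points lie apart from the grey ones, and in 6 genes all grey points sit at 0 because no fragment was counted in Naïve.

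Nuclear genes of oxidative phosphorylation made up the largest group of related genes among those higher in Adr. Of 82 subunits of complexes I to V and cytochrome c that were tested, 5 rose past the threshold, none was lower, and 77 had a positive log2 fold change. In 43 of the 82, every Adr library lay above every Naïve library, beside 3.35% of all genes tested. Their median log2 fold change was 0.34, beside 0.02 over all genes tested. By complex, the median was 0.35 in complex I (37 genes, 2 past the threshold), 0.10 in complex II (4 genes, 0), 0.31 in complex III with cytochrome c (10 genes, 1), 0.46 in complex IV (13 genes, 2) and 0.35 in complex V (18 genes, 0).

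The 2 complex I subunits past the threshold were Ndufa7 and Ndufb4, both accessory subunits without a catalytic role. Ndufa7 stood at 96.6, 102, 113, 106 and 104 FPKM in Naïve replicates 1 to 5 and at 164, 158, 186 and 166 FPKM in Adr replicates 1 to 4. The groups were well separated, and the mean rose from 104 ± 6.15 FPKM (SD, n = 5) to 169 ± 12.3 FPKM (SD, n = 4) (log2 fold change 0.69 ± 0.08 (SE), adjusted p = 0.0207). Ndufb4 was at 83.4, 85.3, 100.1, 97.2 and 86.6 FPKM in Naïve and at 163, 126.4, 148 and 157 FPKM in Adr. Its lowest Adr value, in replicate 2, was still above the highest Naïve value (log2 fold change 0.71 ± 0.10 (SE), adjusted p = 0.0356).

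Uqcr10, a small subunit of complex III, read 589, 645, 698, 740.0 and 654 FPKM in the Naïve mice and 954, 967, 1102 and 1015 FPKM in the Adr mice. All 4 Adr values exceeded the Naïve range, with a rise of 0.60 ± 0.09 (SE) on the log2 scale (adjusted p = 0.0356). In complex IV, the oxygen-consuming step, the X-linked subunit Cox7b measured 499, 576, 608, 617 and 559.6 FPKM in Naïve and 831, 808, 966 and 956 FPKM in Adr (log2 fold change 0.64 ± 0.09 (SE), adjusted p = 0.0356). Cox4i1, the subunit 4 isoform of most tissues, measured 969.6, 943, 1041, 926 and 1034 FPKM in Naïve and 1378, 1267, 1421 and 1355 FPKM in Adr. This was the most abundant of the 5 subunits and had the smallest log2 difference among them (0.46 ± 0.08 (SE), adjusted p = 0.0448). Cox4i1 overlaps Emc8 on the opposite strand, and whether strand was used in counting is not given in the sources used here.

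The 5 subunits with a negative log2 fold change were Ndufs1, Ndufa13, Sdha, Atp5a1 and Atp5b, of which the last 2 form the catalytic head of the ATP synthase. Ndufs1, the iron-sulphur subunit at the entry of complex I, was at 61.2, 58.7, 65.2, 46.3 and 58.2 FPKM in Naïve and 49.6, 54, 43.6 and 47.3 FPKM in Adr, with overlapping groups (log2 fold change -0.24 ± 0.11 (SE), adjusted p = 0.343). Sdha, the flavoprotein that complex II shares with the citric acid cycle, was at 244, 254, 267, 226 and 265 FPKM in Naïve and 228, 225, 206 and 210.0 FPKM in Adr (log2 fold change -0.21 ± 0.08 (SE), adjusted p = 0.266). Of 20 citric acid cycle genes, none passed the threshold and 13 had a negative log2 fold change. Cs, citrate synthase, read 174, 176, 179.5, 166 and 164 FPKM in Naïve and 159, 148, 132 and 154 FPKM in Adr, and Ogdh, a subunit of the oxoglutarate dehydrogenase complex, read 309, 322, 336, 296 and 331 FPKM in Naïve and 259, 273, 239 and 260.5 FPKM in Adr. In both genes the Adr values lay below the Naïve range without passing the threshold (adjusted p = 0.25 and 0.129).

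The 13 subunits encoded in the mitochondrial genome showed no common direction, with 6 positive and 7 negative log2 fold changes and a median of -0.02. None passed the threshold. mt-Nd5, a proton-pumping subunit of complex I, was at 15330.2, 11158, 13246, 11964 and 17697 FPKM in Naïve and 7771, 9231, 8166 and 8984 FPKM in Adr (log2 fold change -0.68 ± 0.14 (SE), adjusted p = 0.0804). mt-Co2, a catalytic subunit of complex IV, was at 975, 671, 692, 628 and 727 FPKM in Naïve and 1306, 1077, 985 and 1135 FPKM in Adr (log2 fold change 0.62 ± 0.13 (SE), adjusted p = 0.0936). These 2 genes separated the groups in opposite directions. The share of fragments on the mitochondrial genome was 27.4% ± 2.35 (SD, n = 5) in Naïve and 24.7% ± 1.44 (SD, n = 4) in Adr (exact permutation p = 0.0952, two-sided). Mitochondrial transcripts share reads with nuclear copies of the mitochondrial genome, so these values are uncertain.

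**Figure D2:**
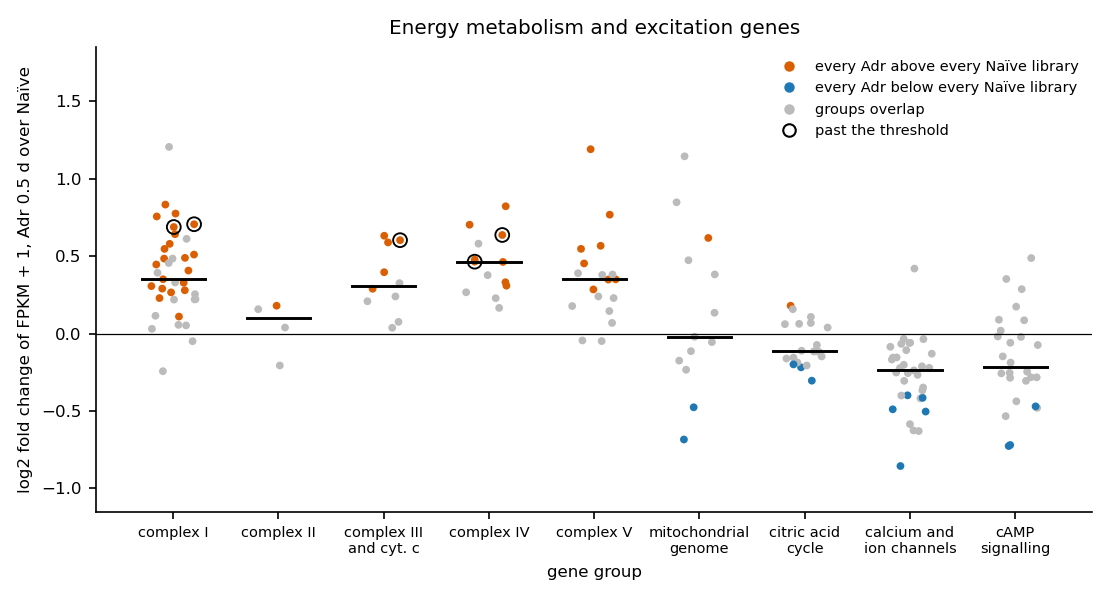
Log2 fold change of FPKM + 1, Adr at 0.5 days over Naïve (vertical axis), for each tested gene of 9 groups (horizontal axis). Orange and blue points are genes in which every Adr library lies above or below every Naïve library, grey points are genes with overlapping groups, circles mark genes past the threshold and bars are medians. Nuclear subunits sit mostly above 0, with medians of 0.10 to 0.46 by complex, while calcium handling and cyclic AMP genes sit mostly below 0.

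Gene length moved with this result. Per library, Spearman's rho across genes between the deviation from the gene's mean and gene length was 0.04 to 0.22 in Naïve and -0.30 to -0.13 in Adr, with no overlap (exact permutation p = 0.0159, two-sided, adjusted p = 0.0397 over 5 library measures). This p is the smallest that this test allows with 4 against 5 libraries. The deviations of the 9 libraries sum to 0, so the signs of the 2 groups are tied. Among genes with a mean of at least 1 FPKM, the median log2 fold change was 0.19 in the shortest of 4 length classes of like size (57 to 2377 bases) and -0.09 in the longest (6447 to 117334 bases). The 58 oxidative phosphorylation subunits in the shortest class had a median of 0.39, and 51 of them exceeded the median of all genes of that length. In the 2 middle classes the medians were 0.17 (13 subunits) and 0.33 (9 subunits), beside 0.06 and -0.02 over all genes of those lengths. With the length trend of each library removed, the list medians dropped to 0.19 for complex I and 0.19 for complexes II to V, and none of the 5 subunits passed the threshold (adjusted p of 0.0781 to 0.176). The part of gene length in the result was not tested beyond this. Over all alternatives, the lowest list medians were 0.19 for complex I and 0.10 for complexes II to V. After quantile normalization Ndufa7 stayed past the threshold, while Ndufb4, Uqcr10, Cox7b and Cox4i1 did not.

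Promoters of these subunits are known targets of the transcription factors NRF-1, GABP and the oestrogen-related receptors. Windows from 250 bases before to 50 bases after the start of the gene, from RefSeq on GRCm38.p6, were searched on both strands for 3 short motifs. These were TGCGCA (part of the NRF-1 site), CCGGAAG (GABP) and AAGGTCA (oestrogen-related receptors), and none of them contains another. They were chosen with the results above known. Windows were found for 68 of the 82 subunits, 73 windows in all. TGCGCA was in 27.4% of them, CCGGAAG in 23.3% and AAGGTCA in 12.3%. In the 12390 windows of all genes tested the shares were 13.2%, 16.9% and 3.26%, and in all 32851 windows held there 7.76%, 8.86% and 4.72%. These shares are a description of the sequences and say nothing of binding in these hearts. The window of Ndufb4 (chr16:37654319-37654618, minus strand, GRCm38.p6) is shown because it was the one among the subunits past the threshold to hold any of these motifs; the windows of Ndufa7, Uqcr10 and Cox7b held none, and no window was found for Cox4i1. Capitals mark TGCGCA from position 59 and AAGGTCA from position 196, counted from 1 at its 5′ end.
Ndufb4: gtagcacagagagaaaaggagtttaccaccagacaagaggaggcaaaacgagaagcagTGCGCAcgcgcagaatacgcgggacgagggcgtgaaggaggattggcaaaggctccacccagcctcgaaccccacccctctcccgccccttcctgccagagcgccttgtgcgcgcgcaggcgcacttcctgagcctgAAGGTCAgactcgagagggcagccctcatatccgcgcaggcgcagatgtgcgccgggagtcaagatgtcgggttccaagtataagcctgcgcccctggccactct

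The other 8 genes higher in Adr were 7 protein-coding genes and 1 pseudogene. Csrp3, the muscle LIM protein of the sarcomeric Z-disc, was at 412, 394, 427, 407 and 457 FPKM in Naïve and 710.3, 587, 688 and 592 FPKM in Adr. It was the one gene past the threshold among 22 ventricular cardiomyocyte genes (log2 fold change 0.61 ± 0.09 (SE), adjusted p = 0.0356). Lgals3 encodes galectin-3, a lectin of macrophages and injured tissue. It rose from 2.34, 3.73, 2.38, 1.54 and 1.24 FPKM in Naïve to 5.84, 7.78, 8.52 and 11.2 FPKM in Adr, above the Naïve range in all 4 Adr mice (log2 fold change 1.54 ± 0.23 (SE), adjusted p = 0.0356). Fstl3, a secreted inhibitor of activins and myostatin, was at or near 0 in Naïve with 0.235, 0, 0.187, 0 and 0.669 FPKM and reached 2.52, 2.85, 4.92 and 1.26 FPKM in Adr (log2 fold change 1.62 ± 0.27 (SE), adjusted p = 0.0472). Fstl3 overlaps Prss57 on the opposite strand.

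Msrb1, a selenoprotein that repairs oxidised methionine, stood at 61, 68.1, 73.9, 89.5 and 72.4 FPKM in Naïve and 123, 122, 205 and 152 FPKM in Adr, with replicate 3 highest (log2 fold change 1.01 ± 0.16 (SE), adjusted p = 0.0448). Acot13, a mitochondrial acyl-CoA thioesterase named after its values were seen, went from 321 ± 20.4 FPKM (SD, n = 5) to 508 ± 38.2 FPKM (SD, n = 4) (log2 fold change 0.66 ± 0.08 (SE), adjusted p = 0.0207). Prr13 and Cystm1 rose by 0.95 ± 0.15 (SE) and 0.85 ± 0.14 (SE) on the log2 scale (adjusted p = 0.0429 each), and so did the processed pseudogene Gm12338 by 0.81 ± 0.10 (SE) (adjusted p = 0.0207). Reads of a processed pseudogene can come from its parent gene, so Gm12338 is uncertain.

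The remaining 7 genes higher in Adr were short or antisense transcripts with few fragments. Mir1898, Gm27616, Gm24840, Sox6os, Gm45820 and 1 U6 small nuclear RNA gene (ENSMUSG00002075283) had no fragment in any Naïve library. In Adr replicates 1 to 4, Mir1898 had 6, 6, 4 and 8 fragments, Sox6os 16, 21, 14 and 9, and the U6 gene 8, 5, 2 and 15. Against a floor of 3 fragments over the whole Naïve group, Sox6os was at least 23.4-fold higher in Adr, the U6 gene at least 11.7-fold, Mir1898 and Gm45820 at least 9.35-fold, Gm24840 at least 8.18-fold and Gm27616 at least 3.90-fold. The floor covers counting error in Naïve only. Adr counts were taken as observed (10 fragments in all for Gm27616), so the bounds cover neither their counting error nor the spread between mice. The seventh gene, Gm8066, had 1 fragment in Naïve replicate 2 and 9, 8, 20 and 14 in Adr (adjusted p = 0.0375). All 7 passed the filter through the Adr libraries alone, so they had to differ in order to be tested. In total 29 tested genes passed in this way, and 24 passed through Naïve libraries alone, of which none was past the threshold.

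These transcripts lie inside or opposite larger genes. Mir1898, Gm27616 and the U6 gene sit within Zfr, Prrc2c and Cyth1 on the same strand, while Sox6os, Gm24840, Gm45820 and Gm8066 are antisense to Sox6, Clip1, Tom1 and Epo. Reads of the host gene cannot be separated from theirs without the strand and the fragment positions. Mir1898 had the smallest p of all (adjusted p = 0.0011 by limma), but it had to differ in order to be tested. With fragments and the voom weights of limma its adjusted p was 0.183. The mature miRNA of Mir1898 is at chr15:12171502-12171523 on the plus strand of GRCm38.p6 in RefSeq. It is shown with its seed, bases 2 to 8, in capitals. Fragments counted on the gene here come from longer RNA and are not a measure of the mature miRNA.
miR-1898: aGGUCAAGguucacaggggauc

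The 6 genes lower in Adr, all but Pm20d2 of at least 7090 bases, had a median length of 9693 bases beside 979 bases for the 20 higher genes. Nrp1 encodes neuropilin-1, a co-receptor for vascular endothelial growth factor and semaphorins. It was at 15.9, 15.2, 15.4, 16.4 and 17.8 FPKM in Naïve and at 9.91, 9.54, 8.75 and 8.55 FPKM in Adr, a fall seen in all 4 mice (log2 fold change -0.75 ± 0.10 (SE), adjusted p = 0.0207). Vldlr, a receptor for triglyceride-rich lipoproteins, fell from 38, 34.2, 32.6, 34.4 and 41.1 FPKM to 21.2, 21.5, 22.3 and 24.8 FPKM (log2 fold change -0.66 ± 0.10 (SE), adjusted p = 0.0356). It was the one member past the threshold among 28 genes of endoplasmic reticulum stress and ATF4 targets, and its direction was opposite to that of most of that list (24 of 28 positive).

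Pm20d2, a dipeptidase, had the largest fall of the 6 and was the only one of them under 7090 bases in length (1834 bases). Its values were 14.2, 13.1, 14.1, 18.6 and 12 FPKM in Naïve and 7.73, 6.08, 6.23 and 7.74 FPKM in Adr, less than the lowest Naïve value in each mouse (log2 fold change -0.95 ± 0.14 (SE), adjusted p = 0.0356). Osbpl8, a lipid transfer protein of the endoplasmic reticulum, dropped from 11.6 ± 0.8 FPKM (SD, n = 5) to 6.47 ± 0.833 FPKM (SD, n = 4) (log2 fold change -0.76 ± 0.11 (SE), adjusted p = 0.0356). Glg1, a Golgi glycoprotein, and the zinc finger gene Zfp106 differed by -0.62 ± 0.10 (SE) and -0.58 ± 0.09 (SE) on the log2 scale (adjusted p = 0.0375 and 0.0458). With the length trend removed, Pm20d2 passed the threshold (adjusted p = 0.0431), and the other 5 lower genes did not (adjusted p of 0.0781 to 0.102). Mir1898 and Sox6os also passed it, but both had entered the test through the Adr libraries alone.

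Further lower genes were taken by smallest p outside the threshold, among those with groups that did not overlap and a mean of at least 1 FPKM in 1 group. They were Dbt, Abcc9, Cd93, Prox1, Gm32113 and Fyco1. Abcc9, the regulatory subunit of a potassium channel that opens when ATP is low, was at 37.6, 35.3, 32.5, 26.3 and 35.2 FPKM in Naïve and 19.8, 20.8, 14.4 and 20.5 FPKM in Adr (adjusted p = 0.0607). Cd93, an endothelial surface protein, read 32.4, 27.8, 24.4, 24.9 and 30.9 FPKM in Naïve and 18.9, 19.1, 16.9 and 15.8 FPKM in Adr (adjusted p = 0.0687). Prox1, a transcription factor of lymphatic endothelium that cardiomyocytes also express, was at 8.95, 7.14, 7.44, 6.47 and 9.25 FPKM in Naïve and 4.25, 4.56, 4.25 and 2.77 FPKM in Adr (adjusted p = 0.0687). Dbt was at -0.52 on the log2 scale (adjusted p = 0.0598), and Fyco1 and the non-coding gene Gm32113 were at -0.66 and -1.54 (adjusted p = 0.0728 each). Separation of the groups was required for a gene to be listed here, so it is not a result about these genes.

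Most genes of calcium handling and ion channels had lower means in Adr. Of 33 tested, none passed the threshold and 32 had a negative log2 fold change. In 5 (15.2%) every Adr library lay below every Naïve library, beside 3.62% of all genes tested. The list's median was -0.24, and -0.23 with the length trend removed. By library, its median difference from the Naïve mean was -0.13, -0.14, -0.51 and -0.17 in Adr replicates 1 to 4. In Naïve it ran from -0.20 in replicate 4 to 0.08, so only Adr replicate 3 lay below the Naïve range. Ryr2, the calcium release channel of the sarcoplasmic reticulum, was at 42.2, 43.8, 43, 39.3 and 43.5 FPKM in Naïve and 29.9, 30.5, 24.1 and 36.3 FPKM in Adr (log2 fold change -0.49 ± 0.11 (SE), adjusted p = 0.111). Its Adr values were all lower, with replicate 3 lowest. Atp2a2, the calcium pump that refills that store, was at 1599, 1654, 1668, 1298 and 1588 FPKM in Naïve and 1283, 1298, 1146 and 1313 FPKM in Adr, where the groups overlapped through Naïve replicate 4 (adjusted p = 0.19). Cacna2d1, an auxiliary subunit of the calcium channel, was at 14.5 ± 2.63 FPKM (SD, n = 5) in Naïve and 9.78 ± 0.418 FPKM (SD, n = 4) in Adr (adjusted p = 0.153).

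Gja1 encodes connexin 43, the gap junction protein that couples cardiomyocytes. It was at 29.1, 31.6, 32.3, 32.8 and 33.6 FPKM in Naïve and at 25.5, 27.5, 11.2 and 10.8 FPKM in Adr replicates 1 to 4 (log2 fold change -0.86 ± 0.26 (SE), adjusted p = 0.182). The difference was uneven, with replicates 3 and 4 far below replicates 1 and 2. Kcnj3, a subunit of the acetylcholine-activated potassium channel, was at 12.8, 12.2, 13.2, 9.49 and 11 FPKM in Naïve and 8.58, 9.88, 4.89 and 6.24 FPKM in Adr, also lowest in replicates 3 and 4 (adjusted p = 0.168).

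None of the 26 tested genes of adrenergic receptors and cyclic AMP signalling passed the threshold, and 19 had a negative log2 fold change (median -0.22). By library, the list's median difference from the Naïve mean was -0.03, -0.12, -0.19 and -0.13 in Adr replicates 1 to 4. In Naïve it ran from -0.14 in replicate 4 to 0.03, so only Adr replicate 3 lay below the Naïve range. Adrb1, the main beta receptor of cardiomyocytes, was at 4.63, 3.74, 3.87, 5.33 and 6.35 FPKM in Naïve and 5.73, 4.52, 1.94 and 1.89 FPKM in Adr, with replicates 3 and 4 below the Naïve range (adjusted p = 0.468). Some downstream genes were lower in every Adr mouse without passing the threshold. Akap6, the anchoring protein that ties protein kinase A to calcium stores, was at 9.42, 9.99, 9.87, 8.77 and 10.8 FPKM in Naïve and 6.13, 6.83, 4.19 and 5.14 FPKM in Adr (log2 fold change -0.73 ± 0.14 (SE), adjusted p = 0.0728). Adcy9, an adenylyl cyclase, was at 5.88, 3.77, 4.32, 3.47 and 3.26 FPKM in Naïve and 1.77, 1.63, 2.3 and 2.72 FPKM in Adr (adjusted p = 0.126). Pde4b, a phosphodiesterase that breaks down cyclic AMP, was at 5.31, 4.33, 3.92, 3.96 and 5.17 FPKM in Naïve and 2.89, 3.81, 2.87 and 2.45 FPKM in Adr (adjusted p = 0.184). The groups did not overlap in these 3 genes.

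In some stress genes Adr mice differed from one another, with replicates 3 and 4 high and replicates 1 and 2 nearer to Naïve. Other stress lists had another order, with median differences from the Naïve mean of 0.41, 0.31, -0.07 and -0.07 in Adr replicates 1 to 4 for endoplasmic reticulum stress and ATF4 targets, and of 0.21, 0.09, -0.27 and -0.04 for heat shock and chaperones. Hmox1, haem oxygenase 1, was at 6.17, 4.82, 7.69, 7.48 and 8.66 FPKM in Naïve and at 7.67, 19.8, 111 and 150.4 FPKM in Adr replicates 1 to 4. The large mean difference (log2 fold change 2.41 ± 0.71 (SE)) came mainly from replicates 3 and 4 and did not pass the threshold (adjusted p = 0.174). Mt1, a metallothionein that binds zinc, was at 132, 119.9, 116, 95.9 and 108 FPKM in Naïve and 183, 176, 822 and 749 FPKM in Adr (log2 fold change 1.71 ± 0.45 (SE), adjusted p = 0.134). Cdkn1a, the cell cycle inhibitor p21, followed the same order with 14, 17.4, 17.8, 11.6 and 16.8 FPKM in Naïve and 22.2, 22.9, 68.4 and 70.9 FPKM in Adr (adjusted p = 0.14). In Mt1 and Cdkn1a all 4 Adr values exceeded the Naïve range, while in Hmox1 the groups overlapped.

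Glucocorticoid target genes showed the same split. Fkbp5, a co-chaperone of the glucocorticoid receptor, was at 1.19, 1.1, 2.11, 2.18 and 0.824 FPKM in Naïve and 3.71, 2.05, 18.5 and 17.5 FPKM in Adr (log2 fold change 1.81 ± 0.52 (SE), adjusted p = 0.162). Zbtb16, a transcription factor induced by glucocorticoids, was at 3.07, 4.29, 2.82, 1.93 and 2.1 FPKM in Naïve and 4.99, 2.87, 16.6 and 26.2 FPKM in Adr (adjusted p = 0.218). Tsc22d3, which encodes the leucine zipper protein GILZ, was at 32, 44.3, 43.8, 37.3 and 30.2 FPKM in Naïve and 36.1, 39.5, 64.6 and 69.5 FPKM in Adr (adjusted p = 0.364). Of 20 glucocorticoid response genes, none passed the threshold, 17 had a positive log2 fold change, and the median was 0.56. The list's median difference from the Naïve mean was -0.06, 0.03, 1.53 and 1.18 in Adr replicates 1 to 4. Nr3c1, the receptor itself, was lower in each Adr mouse, with 15.4, 13.3, 12.9, 15.2 and 13 FPKM in Naïve and 9.84, 9.27, 9.78 and 6.91 FPKM in Adr (log2 fold change -0.60 ± 0.13 (SE), adjusted p = 0.0878). Of the 2 high mice, replicate 3 was female and replicate 4 male by Xist and Ddx3y. Their libraries had 14.7 and 13.2 M fragments, beside 18.5 and 15.5 M in Adr replicates 1 and 2. The part of depth in the split was not tested.

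**Figure D3:**
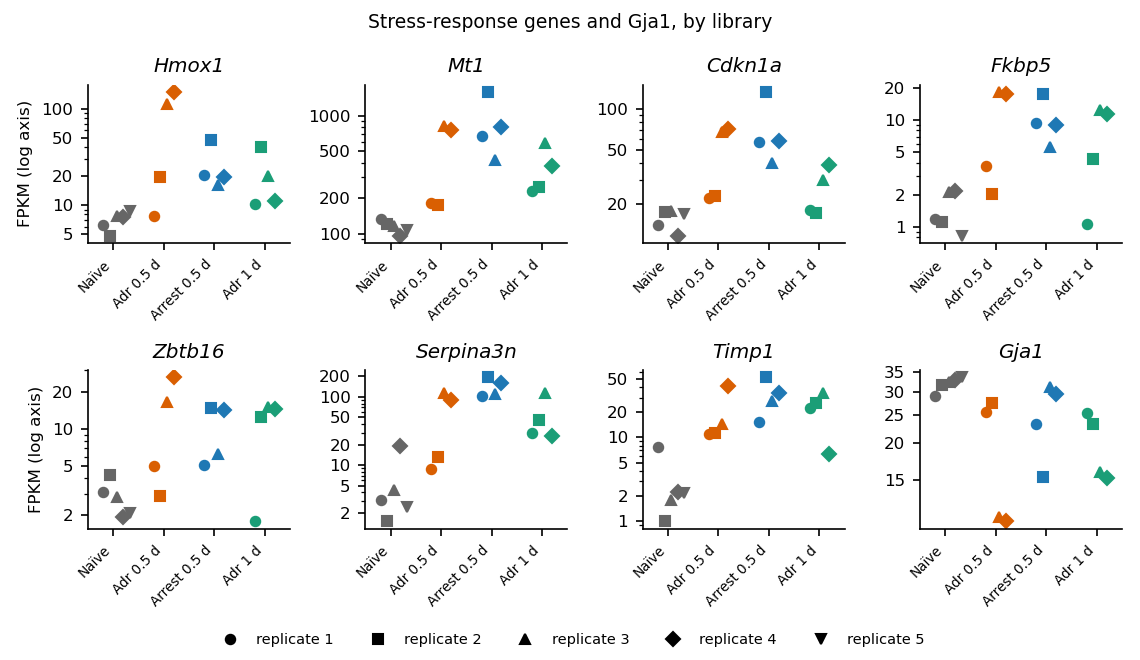
FPKM on a log axis (vertical) for 8 genes in the Naïve, Adr 0.5-day, Arrest 0.5-day and Adr 1-day groups (horizontal), with 1 symbol per replicate number. In Hmox1, Mt1, Cdkn1a, Fkbp5, Zbtb16 and Serpina3n, Adr replicates 3 and 4 of 0.5 days lie above replicates 1 and 2, and in Gja1 below them. Replicate numbers do not pair mice across groups.

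Most antioxidant genes controlled by NRF2 had higher means in Adr. Of 25 tested, none passed the threshold, 22 had a positive log2 fold change, and the median was 0.34 (0.28 with the length trend removed). By library, the list's median difference from the Naïve mean was 0.18, 0.12, 0.65 and 0.52 in Adr replicates 1 to 4. In Naïve it ran from -0.12 to 0.14, so Adr replicate 2 fell within the Naïve range and replicates 3 and 4 were highest. Gpx4, which reduces lipid peroxides, was at 363, 339.7, 439, 416 and 414 FPKM in Naïve and 554, 498, 657 and 593 FPKM in Adr (log2 fold change 0.54 ± 0.11 (SE), adjusted p = 0.0796). Srxn1, which restores oxidised peroxiredoxins, was at 8.36, 6.76, 8.88, 3.57 and 8.28 FPKM in Naïve and 12.4, 9.47, 17.5 and 14.1 FPKM in Adr (adjusted p = 0.165). Both separated the groups, as did Txn1, thioredoxin (log2 fold change 0.41, adjusted p = 0.12).

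Inflammatory genes varied widely between mice. Serpina3n, an acute phase protease inhibitor, was at 3.03, 1.49, 4.39, 18.9 and 2.45 FPKM in Naïve and 8.84, 13.3, 115 and 91.7 FPKM in Adr (log2 fold change 2.76 ± 0.81 (SE), adjusted p = 0.171). Adr replicates 1 and 2 fell within the Naïve range, which Naïve replicate 4 widened. Lcn2, lipocalin-2, was at 3.09, 1.08, 0.899, 3.42 and 0.227 FPKM in Naïve and 1.2, 1.84, 27.6 and 16.8 FPKM in Adr, and Socs3, a feedback inhibitor of interleukin-6 signalling, at 1.81, 2.24, 1.95, 4.55 and 2.31 FPKM in Naïve and 3.22, 3.79, 4.14 and 11.7 FPKM in Adr (adjusted p = 0.334 and 0.276). Of 11 acute phase genes tested, none passed the threshold and 10 had a positive log2 fold change (median 0.61). Il6st, the signalling chain of the interleukin-6 receptor, was the exception and was lower in every Adr mouse (log2 fold change -0.37 ± 0.09 (SE), adjusted p = 0.127).

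Only 4 of 17 neutrophil markers reached the test, and none passed the threshold. S100a8 was at 0.645, 1.54, 0, 0 and 0.643 FPKM in Naïve and 1.23, 2.23, 0.578 and 13.2 FPKM in Adr, and S100a9 at 2.94, 8.2, 0.292, 0 and 1.28 FPKM in Naïve and 1.54, 2.84, 0 and 14.9 FPKM in Adr, each highest in Adr replicate 4 (adjusted p = 0.312 and 0.836). The summed level of the 17 markers ran from 0 to 12.5 FPKM in Naïve and from 3.06 to 36.03 FPKM in Adr. Adr replicate 4 also had the largest share of fragments on haemoglobin genes, 0.395% beside 0.176% to 0.199% in the other Adr mice. Its part in the neutrophil values was not tested.

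Macrophage genes differed in direction. Of 17 markers of resident macrophages, none passed the threshold, 13 had a positive log2 fold change, and the median was 0.27. By library, the list's median difference from the Naïve mean was 0.08, 0.20, 0.04 and 0.63 in Adr replicates 1 to 4. In Naïve it ran from -0.15 to 0.33, so only Adr replicate 4 lay above the Naïve range. Cd68, a lysosomal protein of macrophages, was at 9.91, 5.26, 9.14, 10.5 and 9.46 FPKM in Naïve and 12.7, 16.3, 13.2 and 17.7 FPKM in Adr, and the scavenger receptor Cd163 at 3.38, 4.06, 3.46, 3.76 and 4.42 FPKM in Naïve and 4.73, 6.86, 11.7 and 14.6 FPKM in Adr (adjusted p = 0.134 and 0.129). Retnla, a marker of alternatively activated macrophages, went the other way, with 21, 29.6, 39.1, 27 and 17 FPKM in Naïve and 7.68, 15.7, 5.02 and 12.1 FPKM in Adr (log2 fold change -1.37 ± 0.31 (SE), adjusted p = 0.0952). The groups did not overlap in these 3 genes. Of 9 monocyte genes tested none passed the threshold, 4 had a positive and 5 a negative log2 fold change, and the median was -0.12. Gngt2 had the largest rise on that list, at 2.25, 2.85, 4.54, 1.25 and 5.58 FPKM in Naïve and 10.3, 7.42, 8.61 and 8.26 FPKM in Adr (adjusted p = 0.0952). All 8 tested genes of dendritic cells and MHC class II were negative (median -0.35), as were 20 of 29 interferon response genes (median -0.18), with none past the threshold. By library, the dendritic cell list stood at -0.10, -0.06, -1.19 and -0.15 in Adr and at -0.25 to 0.28 in Naïve. Only Adr replicate 3 lay below that range. The interferon list stood at -0.03, -0.07, -0.49 and -0.27 in Adr and at -0.21 to 0.17 in Naïve, with Adr replicates 3 and 4 below the range. Tnfsf10, the death ligand TRAIL, was lower in each Adr mouse at 2.12, 1.94, 2.59 and 0.835 FPKM beside 4.2, 4.4, 3.5, 4.38 and 4.57 FPKM in Naïve (adjusted p = 0.0878).

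Most matrix genes had higher means in Adr. Timp1, an inhibitor of matrix metalloproteases, was at 7.7, 0.993, 1.8, 2.24 and 2.18 FPKM in Naïve and 10.9, 11.4, 14.5 and 41.5 FPKM in Adr, with no overlap (log2 fold change 2.35 ± 0.46 (SE), adjusted p = 0.0746). Mmp3, the metalloprotease stromelysin-1, was at 5.32, 1.5, 3.13, 0.776 and 5.28 FPKM in Naïve and 7.07, 7.02, 17.3 and 17.7 FPKM in Adr (adjusted p = 0.128). Among 29 fibroblast and matrix genes none passed the threshold, 23 were positive, and the median was 0.23. Sparc, a collagen-binding matrix protein, was at 144 ± 10.8 FPKM (SD, n = 5) in Naïve and 189 ± 16.6 FPKM (SD, n = 4) in Adr, and Col1a2, a chain of type I collagen, was at 14 ± 1.28 FPKM (SD, n = 5) in Naïve and 19.4 ± 2.07 FPKM (SD, n = 4) in Adr (adjusted p = 0.115 and 0.128). Mesothelial markers, of the heart's outer surface, varied between mice, with a summed level of 12.3 to 89.1 FPKM in Naïve and 41.4 to 165 FPKM in Adr. The part of surface tissue in the matrix values was not tested.

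Of 15 cardiac stress genes none passed the threshold, 13 had a positive log2 fold change and the median was 0.34. The list's median difference from the Naïve mean was 0.44, 0.24, 0.57 and 0.19 in Adr replicates 1 to 4. Fhl1, a LIM protein linked to hypertrophy, was at 46.8, 37.6, 41.2, 33.5 and 42.5 FPKM in Naïve and 80.8, 70.2, 121 and 57.8 FPKM in Adr, with no overlap (log2 fold change 0.97 ± 0.19 (SE), adjusted p = 0.0746). Nppb, brain natriuretic peptide, was at 376, 278, 311, 534 and 192 FPKM in Naïve and 952, 580.3, 798 and 197 FPKM in Adr, so that 3 Adr mice exceeded the Naïve range and replicate 4 was near its lower end (adjusted p = 0.425). Nppa, atrial natriuretic peptide, overlapped between the groups (adjusted p = 0.496).

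Endothelial genes differed in direction. Kdr, the main receptor for vascular endothelial growth factor, was at 23.3, 25.8, 24.4, 21.6 and 26.3 FPKM in Naïve and 19.7, 18.8, 10.7 and 11.7 FPKM in Adr (log2 fold change -0.68 ± 0.18 (SE), adjusted p = 0.134). Aplnr, the apelin receptor, was at 8.85, 10.9, 8.87, 15.7 and 11.8 FPKM in Naïve and 8.63, 10.9, 1.57 and 1.77 FPKM in Adr (adjusted p = 0.254). Fabp4, a fatty acid carrier of capillaries, was at 132, 125, 117, 144 and 147 FPKM in Naïve and 171, 148, 333 and 283 FPKM in Adr, and Rgcc at 80.5, 75.2, 83, 88.5 and 83.1 FPKM in Naïve and 103, 94.9, 194 and 256 FPKM in Adr (adjusted p = 0.174 and 0.182). In all 4 genes replicates 3 and 4 were the 2 Adr mice farthest from Naïve. Of the 21 endothelial genes tested none passed the threshold, 13 were positive and the median was 0.14.

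Genes of protein synthesis and turnover and of the clock held no gene past the threshold. Of 77 cytosolic ribosomal protein genes none passed the threshold and 68 were positive, but the median of 0.16 was 0.03 with the length trend removed and -0.02 after quantile normalization. Of 37 proteasome genes 33 were positive, with a median of 0.22 (0.10 with the length trend removed). Among 21 clock genes none passed the threshold, 11 were positive and the median was 0.02. Nr1d2, which encodes the repressor REV-ERB beta, was at 19.6, 19.4, 18.4, 17 and 17 FPKM in Naïve and 14.8, 14.4, 13.1 and 15.2 FPKM in Adr, below the Naïve range (log2 fold change -0.33 ± 0.10 (SE), adjusted p = 0.171). The time of day at which tissue was taken is not given in the sources used here. Across the 43 gene lists, 4 held a gene past the threshold and 39 held none, and 7 of the 26 genes past the threshold were on a list.

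**Figure D4:**
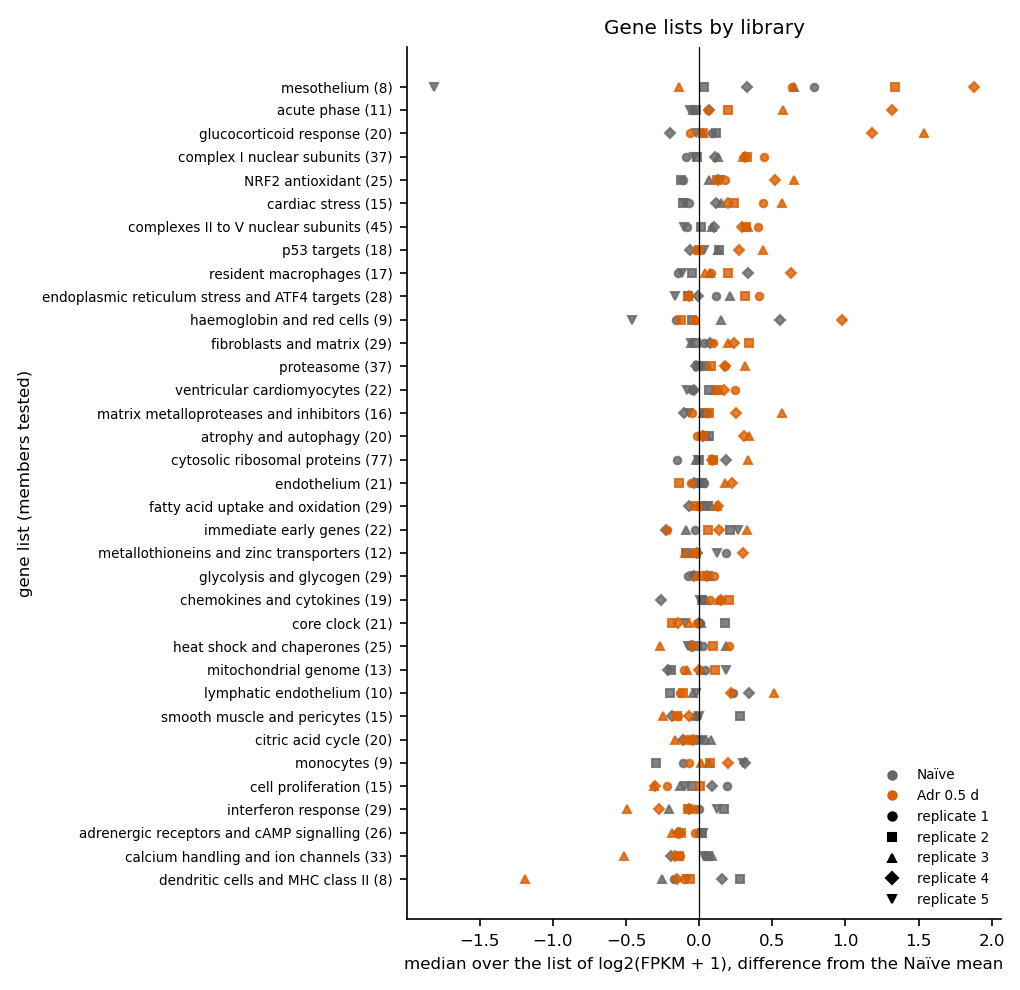
Median over each gene list of the difference from the Naïve mean, log2(FPKM + 1), by library (horizontal axis) for lists with at least 8 members tested (vertical axis, members in brackets). Grey symbols are Naïve and orange symbols Adr libraries of 0.5 days, with 1 shape per replicate number. Both lists of nuclear respiratory subunits have all 4 Adr libraries together at 0.29 to 0.44, whereas glucocorticoid response spans -0.06 to 1.53.

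Arrest and Adr hearts of 0.5 days could be compared directly. Arrest mice received potassium chloride in place of the saline and were resuscitated with adrenaline. No gene passed the threshold of limma between these groups (4 libraries each), while 917 reached 0.05 before adjustment. With fragments and the voom weights of limma the counts were 0 and 882. Of the oxidative phosphorylation subunits, Ndufa7 was at 182, 191, 158 and 133 FPKM in Arrest and Uqcr10 at 1277, 1121, 980.4 and 786 FPKM (log2 difference from Adr -0.03 ± 0.13 (SE) and 0.02 ± 0.15 (SE)). Nrp1 was at 8.31, 11.1, 13.7 and 12.2 FPKM in Arrest, a log2 difference of 0.26 ± 0.15 (SE) from Adr.

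The stress and inflammatory genes named above did not pass the threshold between Arrest and Adr. Serpina3n was at 105, 193, 111 and 160.1 FPKM in Arrest (log2 difference from Adr 1.99 ± 0.74 (SE), adjusted p = 0.668), Socs3 at 10.2, 25.7, 11.7 and 10.03 FPKM (1.25 ± 0.38 (SE), adjusted p = 0.646) and Mmp3 at 16.6, 36.03, 33.9 and 35.1 FPKM (1.30 ± 0.35 (SE), adjusted p = 0.64). Mt1 was at 671, 1594, 421 and 797 FPKM in Arrest (1.04 ± 0.58 (SE)) and Fkbp5 at 9.43, 17.7, 5.59 and 9.02 FPKM (0.33 ± 0.60 (SE)). Hmox1 was at 20.4, 47.8, 16.1 and 19.4 FPKM in Arrest, all below Adr replicates 3 and 4.

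Between Adr mice of 1 day and of 0.5 days, no gene passed the threshold of limma, while 649 reached 0.05 before adjustment (599 with voom weights, and again none past the threshold). Without Adr replicate 4 of 0.5 days 1 gene passed, and without Adr replicate 4 of 1 day 3 genes did. Lgals3 was at 8.93, 16, 16.6 and 5.64 FPKM on day 1 and Ndufb4 at 161, 93.8, 131 and 160.3 FPKM. The day 1 mice were again uneven in stress genes, with Fkbp5 at 1.07, 4.3, 12.4 and 11.4 FPKM and Mt1 at 229, 247, 589 and 374 FPKM. The atrial gene Myl7, at 0.461, 445, 89.6 and 14.1 FPKM on day 1, reached higher in 2 of these libraries than in any Adr library of 0.5 days. The part of atrial tissue in this comparison was not tested.

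More genes were detected in Adr than in Naïve hearts. A value above 0 was listed for 16532, 16297, 16925, 13475 and 16348 genes in Naïve replicates 1 to 5 and for 21377, 20548, 18646 and 18496 genes in Adr replicates 1 to 4. The groups did not overlap (exact permutation p = 0.0159, two-sided, adjusted p = 0.0397 over 5 library measures, the smallest p possible here). Thinned to the 13.2 M fragments of the shallowest library, 13471 to 16914 genes were expected in Naïve and 18496 to 20839 in Adr, again without overlap. By kind of gene, 654 to 1630 long non-coding genes were detected in Naïve and 2144 to 3108 in Adr, and 2 to 11 small nuclear RNA genes in Naïve and 32 to 66 in Adr. In total 154 genes were at 0 in every Naïve library and above 0 in every Adr library, and no gene showed the reverse. Arrest libraries of 0.5 days listed 17081 to 20435 genes and Adr libraries of 1 day 16623 to 21356. The 7 low-count transcripts among the genes past the threshold include 2 miRNA genes, 2 small nuclear RNA genes and 3 long non-coding genes. The part of this difference in the results above was not tested.

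**Figure D5:**
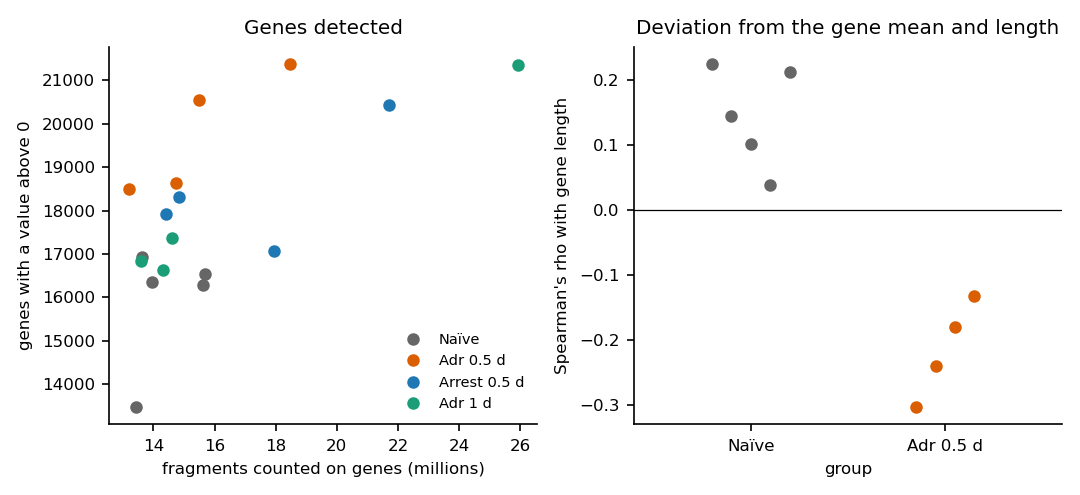
Left, genes with a value above 0 (vertical axis) against fragments counted on genes (horizontal axis) in 17 libraries of 4 groups. Right, Spearman's rho across genes between a library's deviation from the gene mean and gene length (vertical axis) for the Naïve and Adr 0.5-day libraries (horizontal axis). The 4 Adr libraries of 0.5 days list 18496 or more genes and have rho below 0, and the 5 Naïve libraries list at most 16925 genes and have rho above 0.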

How the data were processed

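Left ventricular RNA was sequenced from individual mice as paired reads, aligned by the authors with HISAT2 and tested by them with DESeq2. The study required an RNA integrity number of at least 6. RNA quality was not among the library measures tested here. The deposited FPKM values of the authors are fragments per kilobase of gene scaled to library size, 1 column per library. Genome build, annotation, counting tool and use of strand are not given in the sources used here, so no coordinate of the table is printed. Multiplied by gene length, 100% of values gave whole fragments (tolerance 0.05), from which the depths of 13.2 to 18.5 M were taken. All per-sample columns were mapped by title (0 unused).

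Groups came from the labels. For the 9 libraries, log2(FPKM + 1) was fitted with limma 3.58.1 (R 4.3.3, empirical Bayes with a mean trend), after keeping genes of at least 0.5 FPKM in at least 4 libraries. Benjamini-Hochberg adjusted p of at most 0.05 was the threshold, and errors of fold changes are standard errors of the fit. Fold changes on this scale understate the change of low genes. Arrest at 0.5 days and Adr at 1 day were each fitted against Adr at 0.5 days in the same way. Since these comparisons share libraries, they were not correlated with one another. For single library measures, exact permutation tests (two-sided) were used (scipy 1.17.1). In simulated data (13897 genes, 200 changed) 68% of 1-unit and 93% of 2-unit log2 changes were recovered and 4.17% of calls were false. The simulation drew noise for each gene separately and placed changes only in genes above a minimum level. It held no length trend and no difference in detection between the groups, so its share of false calls does not cover these.

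Named genes were the 15 largest rises and falls past the threshold among non-overlapping genes of at least 1 FPKM in 1 group. Where fewer than 12 passed, genes of smallest p under the same level and overlap rule filled the list to 12. Members of 43 gene lists could also be named. Acot13 fell outside this rule. The comparison and the lists were chosen with earlier results of these data known. Alternatives changed scaling, pseudocount, filter, weights, covariates, libraries and the length trend (loess, span 0.5). Detection at a common depth and the filter on gene length were chosen after seeing the data. Sequences are from RefSeq (GRCm38.p6).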

Additional observations from a re-analysis of the deposited data

Results flagged for a closer look

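Of 190 groups of 4 or 5 libraries checked with Dixon's criterion, 15 had 1 library far from the others, where chance gives about 1 in 20. Their causes were not tested. Naïve replicate 4 listed 13475 genes above 0, beside 16297 to 16925 in the other Naïve mice. It also had the lowest Atp2a2 level, at 1298 FPKM beside 1588 to 1668. The same library was highest in Serpina3n (18.9 FPKM beside 1.49 to 4.39) and Socs3 (4.55 beside 1.81 to 2.31).

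Adr replicate 4 was highest in Timp1 (41.5 FPKM beside 10.9 to 14.5 in the other Adr mice), Socs3 (11.7 beside 3.22 to 4.14) and S100a8 (13.2 beside 0.578 to 2.23). Its share of fragments on haemoglobin genes was 0.395%, beside 0.176% to 0.199%. Adr replicate 3 was highest in the atrial gene Myl7 (25.4 FPKM beside 3.83 to 7.19) and lowest in Abcc9 (14.4 beside 19.8 to 20.8).

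Naïve replicate 1 was highest in Timp1 (7.70 FPKM beside 0.993 to 2.24) and in mt-Co2 (975 beside 628 to 727). Naïve replicate 2 was lowest in Cd68 (5.26 FPKM beside 9.14 to 10.5) and Zfp106 (63.2 beside 70.6 to 73.6). It was also the only Naïve library with a value for Gm8066 (0.130 FPKM, 1 fragment).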

How the results depend on the processing

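The count of 26 genes between Adr and Naïve was 93 with fragments and voom weights, 141 with sample weights, 37 with a fit to all 37 libraries, 270 when Adr replicate 3 of 3 days was left out of that fit (a library that earlier results of these data set apart), 12 after quantile normalization, 3 with the length trend removed and 3 with the description number of the labels as a covariate. It ranged from 2 to 13 when 1 library was left out. Of the 93 genes with voom weights 18 were among the 26, of the 37 genes 6, and of the 270 genes 21. Directions also changed, from 20 higher and 6 lower among the 26. They were 52 and 41 with voom weights and 91 and 50 with sample weights. With all 37 libraries they were 12 and 25, and in the fit with 270 genes 132 and 138. With the replicate number as a block the count was 0, with 1575 at 0.05 before adjustment. Libraries of the same number did not deviate together (r of -0.02, 0.02, -0.05 and 0.05 for numbers 1 to 4), so the numbers do not pair the mice. The other settings gave 18 to 28 genes. Between Arrest and Adr the count was 0 without any 1 library, and between Adr of 1 day and of 0.5 days it ranged from 0 to 3. The causes were not tested. S100a9, at 0.47, ranged when 1 library was left out from -0.25 without Adr replicate 4 to 1.08 without Adr replicate 3, and was 1.47 with the description number as a covariate. The difference in haemoglobin share ranged from -0.0133 percentage points without Adr replicate 4 (exact permutation p = 0.857) to 0.0648 without Naïve replicate 4. Over all named genes and alternatives, 1663 values kept their direction and side of the threshold, 337 were no longer past it and 62 newly passed it. The 1663 include genes that stayed outside the threshold, while the 337 come only from the 26 genes past it. Of these 26, Mir1898 stayed past it in 18 of 22 alternatives, Ndufa7 in 14 of 23, Fstl3 in 5 of 23 and Gm45820 in 4 of 22. Mir1898 and Gm45820 entered the test through the Adr libraries alone and had no fragment in Naïve. Leaving out a Naïve library therefore could not change their log2 fold changes. With voom weights Mir1898 was not past the threshold (adjusted p = 0.183). With 4 and 5 mice, the two-sided exact permutation test used here cannot give a p below 0.0159. The number of fragments limits what can be said of the low-count transcripts, and for the rest the spread between mice does.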
